A study of Mus musculus with 6 samples.

Results

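The miR-199 and miR-214 microRNAs (miRNAs) comprised 6 of the 1915 mature names in the deposited count table, chosen by name: mmu-miR-199a-5p, mmu-miR-199a-3p, mmu-miR-199b-5p, mmu-miR-199b-3p, mmu-miR-214-5p and mmu-miR-214-3p (mmu, the mouse, is left out from here on). miR-199a-3p and miR-199b-3p have the same sequence and share their reads, so they were treated as a single arm and 5 arms were compared. All 5 passed the expression filter, with 505 to 504874 counts in a library. Small RNA was sequenced from bone marrow-derived endothelial progenitor cells (EPCs) of adult male C57BL/6 mice (C57BL/6J in the methods), with no genetic change named in the labels. The air group (Air exposure, 3 libraries) came from mice that inhaled filtered air, and the CAP group (CAPS exposure, 3 libraries) from mice that inhaled concentrated ambient fine particulate matter. The cells of every library had been grown for 12 days in culture by the labels, and the methods give a different time. Because the mice of a group shared 1 cage, effects of the cage and of the exposure cannot be told apart. The library numbers in the column headers also split by group, with 1, 2 and 4 for air and 8, 9 and 10 for CAP. Any effect that follows these numbers cannot be told apart from the exposure either.

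As background, the miR-199a-2 and miR-214 hairpins are cut from Dnm3os, a long noncoding RNA made from the opposite strand of the dynamin gene Dnm3. This transcript is switched on by the transcription factor Twist1, and mice that lack it grow poorly and have skeletal defects. Its miRNAs are typical of fibroblasts, smooth muscle and other mesenchymal cells, and are scarce in blood cells. miR-214-3p is known to repress the histone methyltransferase Ezh2, miR-199a-5p to repress caveolin-1 in fibroblasts, and miR-199a-3p to repress mTOR and the receptor Met.

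The mature sequences show which arms can be told apart by a read. They are written 5′ to 3′ as RefSeq gives them on GRCm38.p6, with bases 2 to 8 (the seed, which pairs with target mRNAs) in capitals. Sequences matched for 5 of the 6 names, all but miR-199b-5p.
miR-199a-5p: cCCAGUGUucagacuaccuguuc
miR-199a-3p: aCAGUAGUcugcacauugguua
miR-199b-3p: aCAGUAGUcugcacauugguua
miR-214-5p: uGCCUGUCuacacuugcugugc
miR-214-3p: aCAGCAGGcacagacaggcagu
The 5 sequences carry 4 different seeds. In the RefSeq table the seed of miR-214-3p is shared with miR-761, which had 0 counts in every library. That allowed it a level of up to 0.222 CPM in the shallowest library, for counting error only (CPM gives each count relative to the library total after TMM scaling).

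The hairpins are shown because miR-199a is cut from a pair of them at different loci, only 1 of which lies in Dnm3os. Mature arms that the RefSeq table lists are in capitals.
Mir199a-2: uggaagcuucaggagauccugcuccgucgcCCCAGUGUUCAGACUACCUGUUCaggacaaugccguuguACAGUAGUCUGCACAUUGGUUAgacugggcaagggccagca
Mir214: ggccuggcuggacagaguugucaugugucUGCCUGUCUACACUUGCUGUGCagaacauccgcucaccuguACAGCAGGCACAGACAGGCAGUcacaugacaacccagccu
Mir199a-1: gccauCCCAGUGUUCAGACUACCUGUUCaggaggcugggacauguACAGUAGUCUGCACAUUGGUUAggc
Mir199b: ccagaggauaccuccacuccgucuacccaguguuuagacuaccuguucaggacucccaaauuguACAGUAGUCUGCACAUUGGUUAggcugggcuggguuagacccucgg
Mir199a-2 (chr1:162217814-162217923, plus strand) and Mir214 (chr1:162223368-162223477, plus strand) lie 5444 bases apart, each inside an exon of Dnm3os in GENCODE. They are antisense to an intron of Dnm3. Mir199a-1 (chr9:21496495-21496564, minus strand) is antisense to an intron of Dnm2, and Mir199b (chr2:32318460-32318569, plus strand) to an intron of Dnm1. miR-214 reads therefore come from the Dnm3os locus alone, and the miR-199 arms other than miR-199b-5p from several loci. miR-199b-5p is assigned to the Dnm1 locus by its row only, since its mature sequence was not matched. The Mir199b hairpin holds a stretch nearly the same as miR-199a-5p, and misassigned reads between these arms were not tested for.

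The deposited rows show the same sharing. The miR-199a-3p rows of the Mir199a-1 and Mir199a-2 hairpins totalled 2241226 and 2255552 counts over the 6 libraries, and the miR-199b-3p row 2241230. The miR-199a-5p rows totalled 469898 and 469952. The fuller row was used, which for both miR-199a arms was that of Mir199a-2.

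Column totals were 19978586 to 25532775 counts, and 13831209 to 18107578 with 1 row for each mature name. miR-126a-3p, the miRNA most typical of endothelium, stood at 1516 to 4005 CPM in air and 749 to 2760 CPM in CAP libraries. Blood cell miR-223-3p stood at 24739 to 31994 CPM in air and 27966 to 32064 CPM in CAP, so that markers of blood cells and of endothelium were both present in cells labelled as EPCs. CAP replicate 1 stood apart in miR-192-5p, which is rich in liver and gut, with 2438 CPM against 190 to 242 CPM in the others, and more so in the liver miRNA miR-122-5p, with 24731 CPM against 75.0 to 277 CPM (named after its values were seen). Fold changes without that library are given with those without each of the others. Levels of different miRNAs also reflect how well each is ligated, and the RNA is from bulk cultures, in which fewer cells of a type and less RNA per cell cannot be told apart.

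The comparison addressed whether these arms differed between cells of CAP-exposed and air-exposed mice. The level of every arm was lower on average in CAP. The Dnm3os guide miR-214-3p had the largest fold change of the 5 in the edgeR fit to all libraries and was the only arm whose groups did not overlap. None passed an adjusted p of 0.05 in the edgeR test, and miR-214-3p passed it with DESeq2. Within a library miR-214-3p was also lower relative to its partner arm miR-214-5p, in each CAP library.

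miR-214-3p, the main product of its hairpin in these libraries, stood at 527, 497 and 669 CPM in air replicates 1, 2 and 3 and at 271, 208 and 354 CPM in CAP replicates 1, 2 and 3. Each CAP library was below each air library. The group means were 564 ± 91.7 CPM in air and 278 ± 73.3 CPM in CAP (SD, n = 3), which gave a log2 fold change of −1.02 (standard error 0.21). The adjusted p was 0.146 by edgeR's quasi-likelihood test and 0.00134 by DESeq2, with Benjamini–Hochberg adjustment over 677 and 706 miRNAs. By DESeq2 the adjusted p was 0.108 without air replicate 3 and at most 0.0443 without any other library in turn. These adjustments were over unlike numbers, 1467 miRNAs without air replicate 3 and 494 to 1458 in the other fits. By edgeR with no filter on low counts it was 0.00781, and 0.468% of miRNAs were then called lower.

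miR-214-5p, the other strand of that hairpin, stood at 152, 162 and 184 CPM in air replicates 1, 2 and 3 and at 122, 97.0 and 163 CPM in CAP replicates 1, 2 and 3. CAP replicate 3 lay within the air range and the other CAP libraries below it. Its log2 fold change was −0.38 (standard error 0.19, edgeR adjusted p = 0.301).

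miR-199a-3p, the most abundant of the arms, stood at 25107, 25261 and 33377 CPM in air replicates 1, 2 and 3 and at 18970, 14122 and 26291 CPM in CAP replicates 1, 2 and 3. It held 79.1 to 81.7% of the reads of the 5 arms in every library. CAP replicate 3 again lay among the air libraries, above air replicates 1 and 2. The log2 fold change was −0.50 (standard error 0.23, edgeR adjusted p = 0.262), and the values include reads of miR-199b-3p.

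miR-199a-5p, which comes from both miR-199a hairpins, stood at 4937, 5110 and 6452 CPM in air replicates 1, 2 and 3 and at 3891, 3399 and 6061 CPM in CAP replicates 1, 2 and 3. The ranges overlapped through CAP replicate 3, and the log2 fold change was −0.31 (standard error 0.22, edgeR adjusted p = 0.459). In this fit it was the smallest fold change of the 5 arms.

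miR-199b-5p, the arm assigned to the Dnm1 locus, stood at 114, 124 and 178 CPM in air replicates 1, 2 and 3 and at 71.2, 28.0 and 119 CPM in CAP replicates 1, 2 and 3. CAP replicate 2 was far below the other CAP libraries, and CAP replicate 3 lay between air replicates 1 and 2. Its log2 fold change was −0.93 (standard error 0.47, edgeR adjusted p = 0.301), and −0.56 without CAP replicate 2. Its fold change was larger in size than that of miR-214-3p by limma-voom (−1.15 against −1.05), with a replicate block (−1.12 against −1.04) and without CAP replicate 3 (−1.50 against −1.25).

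**Figure D1:**
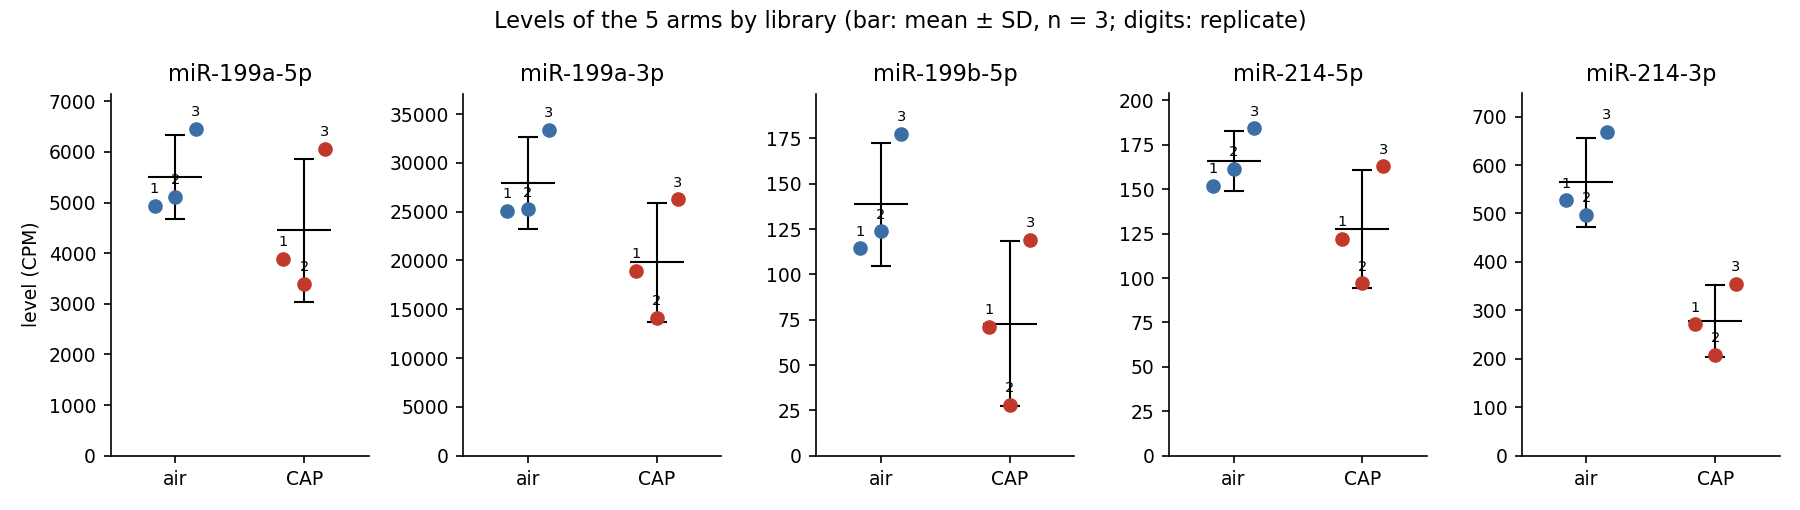
Levels in CPM (vertical axes, each from 0) of the 5 arms in each library, air in blue and CAP in red, with the mean ± SD of 3 libraries as bars and replicate numbers beside the points. For miR-214-3p every CAP point (208 to 354 CPM) lies below every air point (497 to 669 CPM), and for the other arms CAP replicate 3 lies among the air points.

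The libraries fell in nearly the same order for all arms. CAP replicate 2 was lowest and air replicate 3 highest for each of the 5, and CAP replicate 1 was next to lowest for each. Together the arms held 3.13 to 3.98% of the counts in air libraries and 2.34, 1.78 and 3.22% in CAP replicates 1, 2 and 3. Over the 6 libraries Pearson's r of log2 CPM between arms was 0.826 to 0.992, the lowest being between miR-214-3p and miR-199a-5p. Arms share libraries and, in part, transcripts and reads, so they are not independent of each other.

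By edgeR's adjusted p none of the arms was called at 0.05, and of all 677 miRNAs tested 0% were. At an unadjusted p under 0.05, 1 of the 5 arms was lower, where 21.0% of all miRNAs passed and 9.45% were lower. A log2 fold change of at most −0.6 was found for 2 arms, miR-214-3p and miR-199b-5p, and for 7.53% of miRNAs. By DESeq2's adjusted p 1 arm was lower, where 4.25% of 706 miRNAs passed and 2.27% were lower, and by limma-voom 0 arms passed against 0% of miRNAs. Levels without overlap were found for 1 of 5 arms, lower in CAP, and for 29.0% of miRNAs, with 14.3% lower. The median log2 fold change of the arms was −0.50 and that of all miRNAs 0.00, and 5 of 5 arms had a value below 0 against 49.5% of miRNAs. When CAP replicate 3 was left out, 5 of 5 arms were lower without overlap, as were 22.0% of miRNAs, and 5 were lower at an unadjusted p under 0.05, as were 10.8% of miRNAs. Without air replicate 1, 2 arms and 19.2% of miRNAs were lower without overlap. Even so, none of the arms passed edgeR's adjusted p without CAP replicate 3 (adjusted p = 0.137 for each, 0% of miRNAs), whereas by DESeq2 without that library all 5 passed (adjusted p from 7.56e-07 for miR-214-3p to 0.0495 for miR-199b-5p), where 6.64% of 557 miRNAs were lower.

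**Figure D2:**
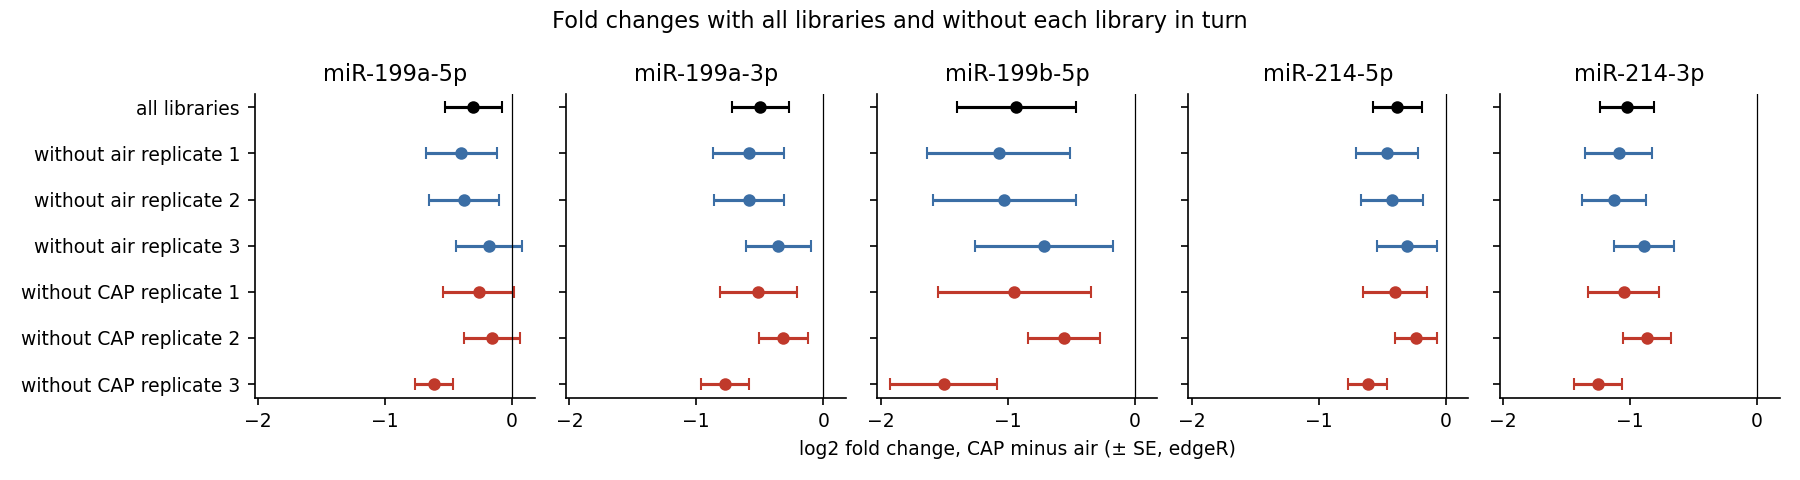
Log2 fold change, CAP minus air, with standard errors from edgeR (horizontal axis) for the 5 arms, with all libraries (black), without each air library (blue) and without each CAP library (red). miR-214-3p stays between −1.25 and −0.87, and miR-199a-5p ranges from −0.61 without CAP replicate 3 to −0.16 without CAP replicate 2.

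Ratios of counts within a library do not depend on scaling between libraries, so they were used to ask whether the arms differed from each other in their change. 4 such ratios were compared. An exact two-sided permutation test of 3 against 3 libraries cannot give a p below 0.1, and each ratio gave that value.

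The ratio of miR-214-3p to miR-214-5p was 3.47, 3.08 and 3.63 in air replicates 1, 2 and 3 and 2.22, 2.15 and 2.18 in CAP replicates 1, 2 and 3. The CAP libraries lay close together and all below the air libraries, although their CPM of both arms differed. The mean ratio was 3.39 ± 0.285 in air and 2.18 ± 0.0368 in CAP (SD, n = 3; exact permutation p = 0.1, adjusted p = 0.1 over the 4 ratios), a difference of −0.63 on the log2 scale.

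The ratio of miR-214-3p to miR-199a-3p, its neighbour on Dnm3os, was 0.0210, 0.0197 and 0.0200 in air replicates 1, 2 and 3 and 0.0143, 0.0147 and 0.0135 in CAP replicates 1, 2 and 3. Here too the groups were far apart relative to their spread, with a log2 difference of −0.51 and a standard error of 0.047 (exact permutation p = 0.1). Reads of miR-199a-3p come from several loci, so this is not a ratio within 1 transcript.

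The ratio of miR-199a-3p to miR-199a-5p was 5.09, 4.94 and 5.17 in air and 4.88, 4.15 and 4.34 in CAP replicates 1, 2 and 3. The groups did not overlap, but CAP replicate 1 stood next to air replicate 2, and the log2 difference was −0.19 with a standard error of 0.072 (exact permutation p = 0.1). The ratio of miR-199b-5p to miR-199a-5p was 0.0232, 0.0242 and 0.0275 in air and 0.0183, 0.00823 and 0.0196 in CAP. The low CAP replicate 2 carried much of that log2 difference of −0.79, which was −0.39 without it (exact permutation p = 0.1 in both cases).

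**Figure D3:**
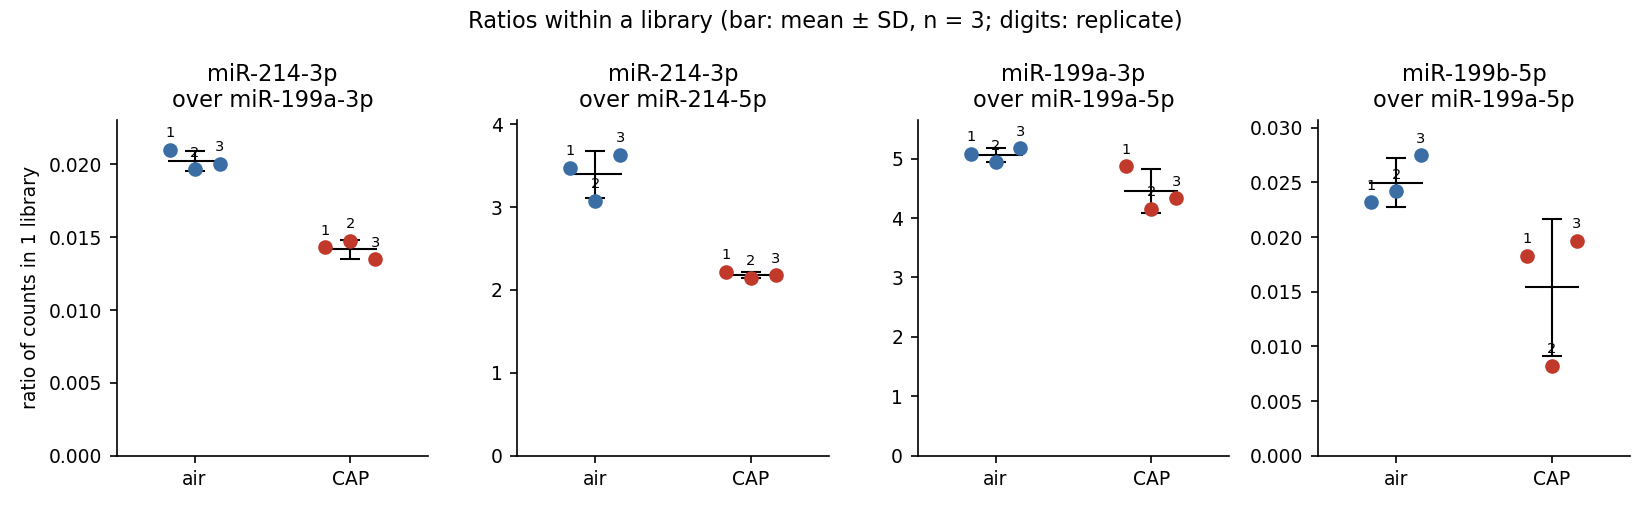
Ratios of the counts of 2 arms in the same library (vertical axes, each from 0), air in blue and CAP in red, with the mean ± SD of 3 libraries and replicate numbers beside the points. In all 4 panels every CAP point lies below every air point, and for miR-214-3p over miR-214-5p the CAP points sit between 2.15 and 2.22.

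To set these arm ratios beside those of other hairpins, limma was fitted to the log2 ratio of 3p to 5p counts of 229 hairpins with both arms tested, a test chosen after the data had been seen. The ratios of 38.0% of hairpins did not overlap between groups (23.1% lower in CAP), and 18.3% had an adjusted p of at most 0.05 (11.8% lower in CAP), so that shifts between arms were common in these libraries. The Mir214 ratio had the second smallest p of the 229, with a log2 difference of −0.63, a standard error of 0.097 and a limma adjusted p = 0.00312. Without each library in turn the limma adjusted p was 0.00123 to 0.0402. When the arms were instead treated as separate counts (edgeR's diffSpliceDGE), the adjusted p for Mir214 was 0.137, while 15.3% of hairpins passed in either direction. The Mir199a-2 ratio did not pass (limma adjusted p = 0.0693), and passed with 0.00596 without CAP replicate 1.

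**Figure D4:**
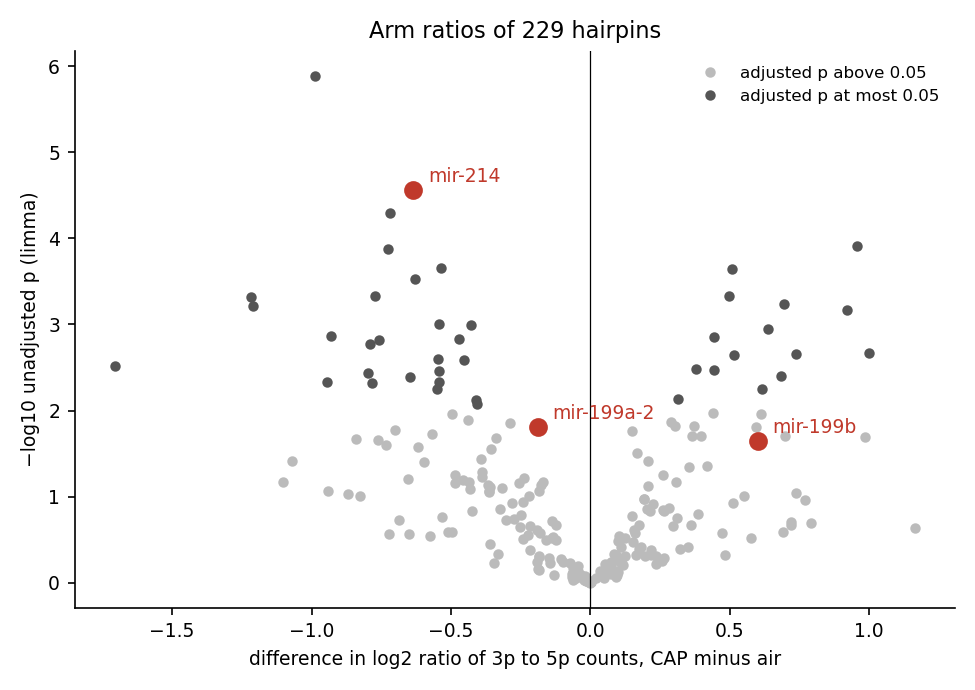
Difference between CAP and air in the log2 ratio of 3p to 5p counts (horizontal axis) against −log10 of the unadjusted limma p (vertical axis) for 229 hairpins, with dark points at an adjusted p of at most 0.05. The Mir214 hairpin lies at −0.63 with the second smallest p, and the Mir199a-2 (−0.19) and Mir199b (0.60) hairpins did not pass, the latter with 3p reads shared among the miR-199 loci.

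A list of 15 other miRNAs of stroma and smooth muscle was set beside the arms. Of these, 10 had a fold change below 0 and 5 above, 0 passed edgeR's adjusted p, and 5 were lower at an unadjusted p under 0.05, against the 9.45% of all miRNAs. The same 5 were lower without overlap, as were 14.3% of all miRNAs. The list's median log2 fold change was −0.11 against −0.50 for the miR-199 and miR-214 arms. miR-708-5p, from an intron of the membrane protein gene Tenm4, was at 57.3 to 112 CPM in air and 23.9 to 40.0 CPM in CAP, with a log2 fold change of −1.18 (standard error 0.30, edgeR adjusted p = 0.146). Like miR-214-3p it passed by DESeq2 (adjusted p = 0.0041). Its partner miR-708-3p had −1.06, and miR-99a-5p −0.57. miR-145a-5p, of the smooth muscle cluster with miR-143, had −0.37 (standard error 0.11), whereas miR-143-3p had −0.11 (standard error 0.11) and overlapped. The partner arm miR-145a-3p had 0.13 (standard error 0.14) and overlapped too. The summed level of the list was 155539 to 172935 CPM in air and 138308 to 198536 CPM in CAP, of which miR-125b-5p made up 76.5 to 80.0% in each library. Without miR-125b-5p the sum was 36055 to 40584 CPM in air and 32200 to 39727 CPM in CAP.

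**Figure D5:**
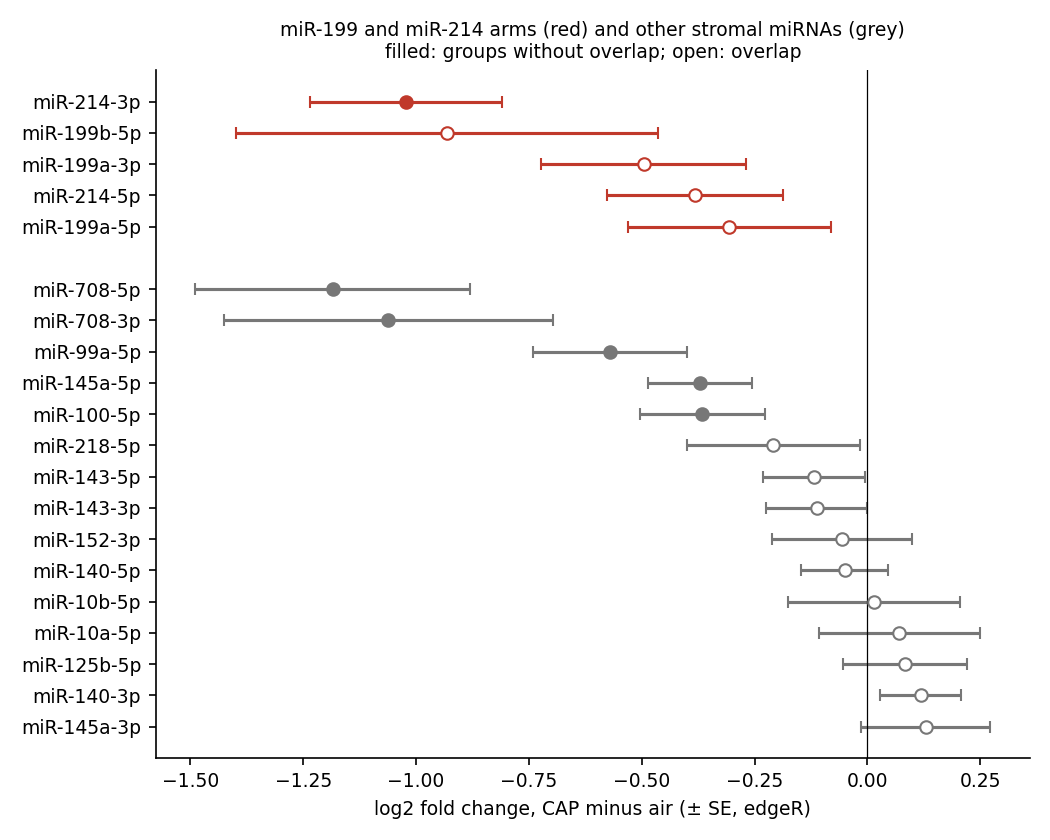
Log2 fold change, CAP minus air, with its standard error from edgeR (horizontal axis) for the 5 arms in red and 15 other stromal and smooth muscle miRNAs in grey, filled where air and CAP levels did not overlap. The arms range from −1.02 to −0.31, and the other stromal miRNAs from −1.18 for miR-708-5p to 0.13 for miR-145a-3p.

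Of 14 miRNAs linked to fibrosis and TGF-β signalling, which the Dnm3os miRNAs are also linked to, 12 were tested and 0 passed edgeR's adjusted p. At an unadjusted p under 0.05, 3 were lower and 2 higher, where 9.45% of all miRNAs were lower and 21.0% passed in either direction, and the median over the list was −0.11. The higher ones were miR-21a-3p and miR-192-5p, whose log2 fold change of 2.20 goes with the 2438 CPM of CAP replicate 1. The growth-restraining miR-26a-5p was at 9702 to 12388 CPM in air and 6992 to 8420 CPM in CAP (log2 fold change −0.45, standard error 0.12), and miR-132-3p had −0.41 and miR-30c-5p −0.33. miR-21a-3p, the scarcer strand of a fibrosis-linked miRNA, had 0.24. The matrix-repressing miR-29a-3p, at 37135 to 39443 CPM in air and 37684 to 39740 CPM in CAP, had 0.02 (standard error 0.06) and was chosen after its values were seen.

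Markers of other cells the cultures could hold were set beside the arms. Of 7 haematopoietic miRNAs, 6 had a fold change above 0 and 1, miR-150-5p, below it (−0.24), where 49.5% of all miRNAs were below 0. At an unadjusted p under 0.05 in edgeR, 1 was higher and 0 lower, where 21.0% of all miRNAs passed in either direction. The median of the 7 was 0.19, and their summed level was 58559 to 72327 CPM in air and 61772 to 77507 CPM in CAP. Within it, miR-155-5p, which inflammatory signals induce in macrophages, stood at 603 to 684 CPM in air and 812 to 1126 CPM in CAP (edgeR adjusted p = 0.157), and miR-142a-5p had a log2 fold change of 0.04. Both endothelial arms that were tested were below 0, with a summed level of 1953 to 5120 CPM in air and 947 to 3675 CPM in CAP. miR-126a-3p was highest in air replicate 3 and lowest in CAP replicate 2, as the arms were, but CAP replicate 1, next to lowest for the arms, was next to highest for miR-126a-3p. Of 4 erythroid, 5 muscle and 6 epithelial miRNAs, 0 passed edgeR's adjusted p (unadjusted p under 0.05 for 0, 1 and 1, and for 21.0% of all miRNAs), and their median log2 fold changes were 0.78, −0.16 and 0.62. The summed erythroid and epithelial levels were highest in CAP replicate 1, at 96.9 and 139 CPM. The part of these shifts in the levels of the arms was not tested.

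miRNAs whose log2 CPM followed the arms most closely were sought over the 6 libraries among 350 others with a mean of at least 10 CPM. Closest to miR-214-3p were miR-322-3p (Pearson's r = 0.988), miR-34c-5p (0.983), miR-361-5p (0.983), miR-872-5p (0.971) and miR-99a-5p (0.963). All 5 were lower in CAP without overlap, as were 14.3% of all miRNAs tested. Because they were picked for likeness to miR-214-3p, whose groups do not overlap, that count is no separate result. Their log2 fold changes were from −0.63 to −0.15, each smaller in size than that of miR-214-3p. Closest to miR-199a-3p were let-7b-5p (0.989), miR-196b-5p (0.988), miR-204-5p (0.985), let-7k (0.984) and miR-674-3p (0.983), of which only miR-204-5p was without overlap, at 41.2 to 138 CPM in air and 4.76 to 34.6 CPM in CAP. The points share library, depth and group, and the groups alone give a high r to any pair that differs between them.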

How the data were processed

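Small RNA of EPCs was sequenced by the authors in 3 air and 3 CAP libraries. According to the study's methods, QIAseq miRNA libraries were run on a NextSeq instrument, trimmed with Trimmomatic, mapped to mm10 with mirDeep2 and bowtie, and quantified against miRBase. The submitters' notes also name bcl2fastq 20.0.422. The deposited values are raw read counts, with a row for every combination of mature name and hairpin. Collapsing by molecular identifiers was not stated, so the limits given for counts of 0 cover counting error only. Replicates are separate library labels from mice of 1 cage a group, and the study's methods call them biological replicates. Where libraries nonetheless came from the same culture, the p-values would measure technical spread only.

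The highest row was kept for each of 1915 names, 83 of which had several rows. Counts were tested with edgeR 4.0.16 (R 4.3.3, TMM scaling, default expression filter, quasi-likelihood fit on the group, Benjamini–Hochberg adjustment over 677 miRNAs). In this fit miR-199a-3p and miR-199b-3p were separate entries. DESeq2 1.42.0, the study's tool, limma 3.58.1 with voom, other scalings, filters and row choices, a replicate block, and leaving out libraries were alternatives. Arm ratios used limma on log2 counts with 0.5 added, and single ratios exact permutation over 20 assignments. The edgeR, DESeq2, limma-voom, replicate-block and both arm-ratio fits were first tested on simulated data. The other alternatives and the permutation tests were not. The named miRNAs were the arms, seed relatives, the closest in profile, and, in the stromal, fibrosis, haematopoietic and endothelial lists, defining members and those with the smallest p. The arms and lists were chosen with earlier results of these data known. Positions are 1-based on GRCm38, the assembly that mm10 denotes. Libraries of a group differed by more than sampling noise (chi-square per degree of freedom at least 67.6).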

Additional observations from a re-analysis of the deposited data

How the results depend on the processing

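All 5 arms kept a fold change below 0 under every alternative run. miR-214-3p also passed the adjusted threshold with no filter on low counts (log2 fold change −1.03, with 1 arm past it and 4 at an unadjusted p under 0.05) and by DESeq2 (−1.03, with 1 and 2). Of all miRNAs, 5.88% with no filter and 4.68% by DESeq2 were lower at that unadjusted p. At the same p, 2 arms were lower with library totals alone (10.2% of miRNAs), when 2 were also without overlap (15.1%), and 3 with limma-voom (10.9%). Upper-quartile scaling moved the median of all miRNAs to 0.15 and the fold changes to between −0.87 and −0.16. By edgeR without each library in turn, log2 fold changes ranged from −1.25 to −0.87 for miR-214-3p, −0.62 to −0.23 for miR-214-5p, −0.77 to −0.32 for miR-199a-3p, −0.61 to −0.16 for miR-199a-5p and −1.50 to −0.56 for miR-199b-5p. By DESeq2 without each library (the miR-214-3p value being −1.10 without air replicate 1, −1.12 without air replicate 2 and −1.01 without CAP replicate 1) they ranged from −1.25 to −0.86, −0.62 to −0.23, −0.77 to −0.31, −0.61 to −0.16 and −1.50 to −0.55. Over both kinds of fit 0 to 5 arms passed the adjusted p, where 0 to 6.64% of miRNAs were lower. At the unadjusted p 1 to 5 arms were lower, as were 2.86 to 12.7% of miRNAs. Lower without overlap were 1 to 5 arms and 12.1 to 24.9% of miRNAs. Among these fits, each count of 5 was found only without CAP replicate 3. The arm ratio of Mir214 was −0.64 and did not pass by diffSpliceDGE, and that of Mir199a-2 ranged from −0.26 to −0.14 without each library. Without both CAP replicate 2 and air replicate 3, chosen after seeing the data, fold changes were −0.70 for miR-214-3p and −0.01 for miR-199a-5p. The causes were not tested.

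Replicate numbers, taken from the sample titles, gave no clear pairing of the libraries over all miRNAs, and 3 libraries a group are too few to settle it. Deviations of air and CAP libraries of the same title number correlated at 0.021, −0.022 and 0.142. Of the 3 air libraries, 1 correlated best with its own number. The column headers number the libraries differently. By header, air replicate 3 and CAP replicate 2 share a number, and they correlated at −0.192. Pairing by header number was not tested further. For each of the 5 arms, replicate 3 by title was the highest library within both groups. With a replicate block by title number, 5 arms were lower at an unadjusted p under 0.05, as were 12.0% of miRNAs, and 0 passed the adjusted p (0.123 for miR-214-3p). The standard error of every arm was smaller with the block, for miR-214-3p 0.118 against 0.213.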

Other observations

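The miR-199a-3p row of the Mir199a-2 hairpin, in Dnm3os, held a net 2530, 2357 and 2502 counts more than that of Mir199a-1 in air replicates 1, 2 and 3 and 2128, 2431 and 2378 more in CAP replicates 1, 2 and 3. This comparison of rows was made after the data had been seen. In all libraries the Mir199a-1 and miR-199b-3p rows differed by at most 2 counts. The hairpin sequences of Mir199a-2 and Mir199a-1 agree over the 22 bases of the arm, the 3 bases before it and 1 base after it. Reads that reach further can match only 1 of them without a mismatch. Whether such reads made up the excess was not tested.

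As a share of the row, the net excess was 0.582, 0.576 and 0.496% in air and 0.718, 0.954 and 0.669% in CAP replicates 1, 2 and 3. The groups did not overlap (0.551 ± 0.0483% against 0.780 ± 0.152%, SD, n = 3, exact two-sided permutation p = 0.1, the smallest possible). The exact binomial 95% interval was 0.560 to 0.605% in air replicate 1 and 0.643 to 0.697% in CAP replicate 3, for counting error only. In CPM the net excess was 152 ± 11.3 in air and 149 ± 23.5 in CAP (exact permutation p = 0.8), while the rest of the row was lower in CAP replicates 1 and 2, at 18834 and 13987 CPM, than in the air libraries, at 24961 to 33211 CPM. In CAP replicate 3 the rest stood at 26115 CPM. In CPM the net excess differed between groups by less than its spread. The sequences of these reads were not analysed here.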
